A study of Mus musculus with 4 samples.

Results

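The transcripts described here come from 34 cell cycle genes, 17 whose messages are high in S phase and 17 whose messages are high in G2 and mitosis, out of 27998 genes in the count table. They were picked by name as known markers of these phases. Each was measured in single cells of 4 mouse libraries, 1 per culture, by 10x Genomics sequencing of polyA RNA, and all 34 had at least 50 counts in every comparison.

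The 4 cultures model the caudal epiblast and the neuromesodermal progenitors (NMPs) that extend the body axis, and all carry the E14Tg2a strain label. For ES-NMP, mouse embryonic stem cells were kept on gelatine in N2B27 medium for 2 days and then received 3 µM CHIR99021, an inhibitor of GSK3 that activates Wnt signalling, for the last 24 h of 72 h. Epi-CE cells came from epiblast stem cells (EpiSCs), which had been maintained for 4 passages or more on fibronectin with 12 ng/ml FGF2 and 25 ng/ml Activin A. They lost Activin A, were moved to 20 ng/ml FGF2, and received 3 µM CHIR99021, labelled Chiron, from day 3. Epi-CE-T cells were grown in the same way from a Bra:GFP reporter line and sorted for GFP after 72 h, where Bra is T (Brachyury), a transcription factor of the primitive streak, NMPs and notochord. Epi-NMP cells were Epi-CE cells replated for 2 more days in 20 ng/ml FGF2 and 3 µM CHIR99021. The Epi-CE-T library therefore differs from Epi-CE in its cell line and its sort as well as in T, and these cannot be told apart.

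In S phase a cell copies its DNA. The MCM helicase is loaded on origins beforehand by Cdc6 and Cdt1, and E2F factors switch on the genes of the helicase, the clamp and the nucleotide supply when RB proteins are inactivated. In G2 and mitosis the cyclin B and Cdk1 kinase, the Aurora and Polo-like kinases and the kinetochore and spindle proteins act. Their genes are held down in G1 by the DREAM complex through CHR elements and are activated later by B-MYB, FOXM1 and the CCAAT-binding factor NF-Y. Pluripotent cells are known for a short G1.

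The promoter stretches below are shown because they hold the most matches of the motifs by which E2F, CHR and NF-Y elements are recognised, 3 windows for each list, ranked within S and within G2/M genes. Windows with fewer than 150 bases free of exons were passed over, and some G2/M windows that are not printed (Hmmr and Mki67, with 5 matches each) hold more matches than the printed Mcm5 (4) and Mcm3 (3). They lie within the 250 bases before the RefSeq start and are written 5′ to 3′ on the strand of the gene, on GRCm38.p6, with matches of any searched motif in capitals. E2F was searched as TTTCGCGC, TTTGGCGC or TTTCCCGC, CHR as TTTGAA or TTCGAA, and the CCAAT box as CCAAT, on both strands and with overlaps allowed. In the order printed they are Mcm6 (chr1:128359706-128359955, minus strand), Mcm5 (chr8:75109259-75109508, plus strand), Mcm3 (chr1:20820313-20820562, minus strand), Top2a (chr11:99024190-99024439, minus strand), Ube2c (chr2:164769679-164769897, plus strand) and Cdk1 (chr10:69352939-69353162, minus strand).
Mcm6: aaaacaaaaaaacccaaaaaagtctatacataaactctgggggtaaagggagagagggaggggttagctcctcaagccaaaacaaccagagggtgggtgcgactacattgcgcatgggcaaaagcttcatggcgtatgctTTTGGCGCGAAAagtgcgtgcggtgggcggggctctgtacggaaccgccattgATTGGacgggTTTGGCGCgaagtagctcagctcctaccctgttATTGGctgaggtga
Mcm5: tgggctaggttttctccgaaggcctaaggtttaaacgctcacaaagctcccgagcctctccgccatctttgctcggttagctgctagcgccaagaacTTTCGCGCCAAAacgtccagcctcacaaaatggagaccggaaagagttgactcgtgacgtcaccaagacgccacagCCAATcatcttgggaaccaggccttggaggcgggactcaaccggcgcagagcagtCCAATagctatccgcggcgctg
Mcm3: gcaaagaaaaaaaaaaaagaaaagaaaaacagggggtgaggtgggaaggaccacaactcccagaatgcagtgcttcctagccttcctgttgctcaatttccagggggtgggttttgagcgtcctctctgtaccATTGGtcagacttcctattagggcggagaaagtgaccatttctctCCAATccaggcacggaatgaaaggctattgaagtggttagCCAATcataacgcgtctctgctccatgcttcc
Top2a: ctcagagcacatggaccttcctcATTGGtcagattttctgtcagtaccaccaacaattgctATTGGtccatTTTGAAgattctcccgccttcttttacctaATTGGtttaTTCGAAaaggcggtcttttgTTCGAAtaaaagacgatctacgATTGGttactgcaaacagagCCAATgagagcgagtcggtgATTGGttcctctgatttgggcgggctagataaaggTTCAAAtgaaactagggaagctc
Ube2c: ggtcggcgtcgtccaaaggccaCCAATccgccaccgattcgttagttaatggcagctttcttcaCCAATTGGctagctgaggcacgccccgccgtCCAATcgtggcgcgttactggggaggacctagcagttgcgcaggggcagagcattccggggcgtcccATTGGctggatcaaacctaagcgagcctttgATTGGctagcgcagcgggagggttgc
Cdk1: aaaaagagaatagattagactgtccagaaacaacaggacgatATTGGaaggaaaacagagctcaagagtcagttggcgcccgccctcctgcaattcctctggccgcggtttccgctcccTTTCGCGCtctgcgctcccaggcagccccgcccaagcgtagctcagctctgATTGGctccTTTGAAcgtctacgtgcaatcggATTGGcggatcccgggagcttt

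RefSeq gave promoters for 29 of the 34 genes, 31 windows in all. An E2F match stood in 4 of 17 S gene windows and in 1 of 14 G2/M gene windows, against 1.53% of 32851 promoters of the same length. A CHR match stood in 3 of 17 S and 5 of 14 G2/M windows, against 17.1% of all. A CCAAT match stood in 10 of 17 S and 12 of 14 G2/M windows, against 33.8% of all. The windows of Mcm6 and Mcm5, helicase subunits, held 3 and 2 E2F matches. The window of Top2a, the topoisomerase that untangles sister chromatids, held 4 CHR and 6 CCAAT matches. A match describes these letters and is neither a bound site nor a cause of any level below.

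Levels were computed over the 8722 barcodes marked TRUE in the deposited cell table, 3116 in ES-NMP, 2386 in Epi-CE, 2109 in Epi-CE-T and 1111 in Epi-NMP. Their summed counts of unique molecules (UMIs) were lowest in Epi-NMP (22261452) and highest in ES-NMP (71563029), and the median per cell from 19189 to 22613.5, so a floor of 3 counts is 0.0419 to 0.135 CPM (counts scaled to a fixed library total). Epi-NMP stood apart in its barcodes: 57.7% of them were marked FALSE, against 3.24% to 5.23% elsewhere. Among TRUE barcodes, 42 of 8680 sequences occurred in 2 libraries. In ES-NMP, 950 cells (30.5%) had UMIs of at least 3 of 10 naive pluripotency markers, against 6 in Epi-CE and 0 in the other libraries. T, the marker the cultures share, was at 102 CPM in ES-NMP, 431 in Epi-CE, 382 in Epi-CE-T and 241 in Epi-NMP, and the library sorted for the T reporter was thus not the highest in T. With 1 library per culture there is no replicate check. Intervals below are 95% and cover counting error only, no test was run, and a difference between libraries cannot be told apart from a difference between preparations.

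The S genes ran highest in ES-NMP and lowest in Epi-CE-T. Summed over the 17 genes, their level was 3027 CPM in ES-NMP, 2439 in Epi-NMP, 2227 in Epi-CE, and 1699 in Epi-CE-T. ES-NMP had the highest level of 16 of the 17, all but Gins2, and Epi-CE-T the lowest level of 14. The intervals of ES-NMP and Epi-NMP overlapped for Pcna, Rrm1 and Tyms, and those of Epi-CE and Epi-CE-T for Cdc6. The ratio of the highest to the lowest library had a median of 1.86 over the 17 genes and ran from 1.10 for Rrm1 to 3.14 for Ung. The plot of member levels by library shows the ES-NMP points at the top of nearly every S gene column and no such order among the G2/M genes.

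**Figure D1:**
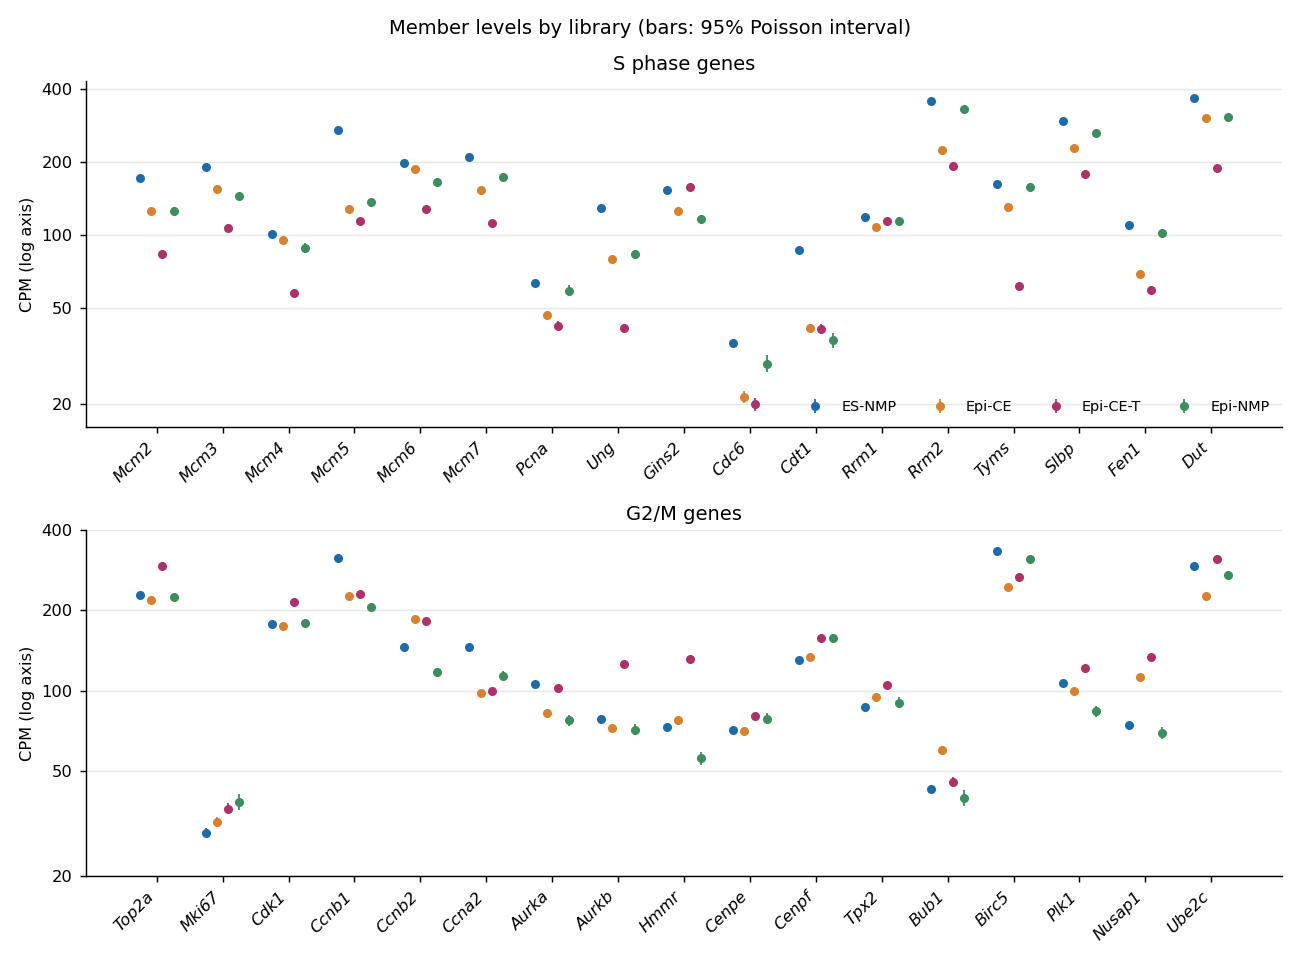
Level of each of the 17 S genes (upper panel) and 17 G2/M genes (lower panel) in CPM on a log axis, 1 point per library with its 95% Poisson interval. ES-NMP is highest for 16 of 17 S genes, and Epi-CE-T is highest for 9 of 17 G2/M genes.

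The 2 loading factors were both highest in ES-NMP but differed in Epi-NMP. Cdt1, which loads MCM on origins, was at 86.6 CPM in ES-NMP, 41.3 in Epi-CE, 40.9 in Epi-CE-T and 36.7 in Epi-NMP. The level in ES-NMP stood above the other 3, which lay close together: Cdt1 was 2.10-fold lower in Epi-CE (interval 2.00 to 2.20) and 2.36-fold lower in Epi-NMP (2.20 to 2.55) than in ES-NMP. Cdc6, its partner at the origin, was at 35.7 CPM in ES-NMP, 21.4 in Epi-CE, 19.9 in Epi-CE-T and 29.4 in Epi-NMP. Here Epi-NMP lay between, and the Epi-CE-T to Epi-CE ratio of 0.93 (0.85 to 1.02) did not exceed counting error.

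Among the helicase subunits, Mcm5 behaved unlike the rest. Mcm5 was at 271 CPM in ES-NMP, 128 in Epi-CE, 115 in Epi-CE-T and 136 in Epi-NMP, so it was 2.12-fold lower in Epi-CE than in ES-NMP (2.07 to 2.18) and 1.12-fold lower in Epi-CE-T than in Epi-CE (1.08 to 1.16). Mcm4 had the other pattern, with 101 CPM in ES-NMP, 95.3 in Epi-CE, 57.8 in Epi-CE-T and 88.5 in Epi-NMP. It was 1.06-fold lower in Epi-CE than in ES-NMP (1.02 to 1.10) and 1.65-fold lower in Epi-CE-T than in Epi-CE (1.58 to 1.73). Mcm2, Mcm3, Mcm6 and Mcm7 were 1.06-fold to 1.37-fold lower in Epi-CE than in ES-NMP and a further 1.37-fold to 1.51-fold lower in Epi-CE-T. The subunits of 1 ring thus did not keep a fixed ratio across the libraries. Gins2, a subunit of the GINS complex that activates the helicase, was at 153 CPM in ES-NMP, 126 in Epi-CE, 158 in Epi-CE-T and 116 in Epi-NMP, and was the only S gene of the 17 whose highest level was in Epi-CE-T. Its intervals in Epi-CE-T (154 to 162 CPM) and ES-NMP (150 to 156 CPM) overlapped.

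The nucleotide genes, with Ung taken beside them, also differed in pattern. Tyms, thymidylate synthase, was at 162 CPM in ES-NMP, 130 in Epi-CE, 61.8 in Epi-CE-T and 158 in Epi-NMP. Epi-CE-T alone was low, 2.11-fold below Epi-CE (2.02 to 2.20). Dut, which removes dUTP, was at 369 CPM in ES-NMP, 305.7 in Epi-CE, 189 in Epi-CE-T and 309 in Epi-NMP, and was 1.62-fold lower in Epi-CE-T than in Epi-CE (1.58 to 1.66). Ung, the glycosylase that removes uracil from DNA, was at 129, 79.6, 41.1 and 83.2 CPM when the libraries are taken likewise, 1.94-fold lower in Epi-CE-T than in Epi-CE (1.83 to 2.05). These 3 genes had their lowest level in the sorted library, as did 14 of the 17 S genes in all. Rrm2, the regulated subunit of ribonucleotide reductase, was at 357, 224, 192 and 331 CPM, lower in both caudal epiblast libraries than in both NMP libraries. Rrm1, its partner subunit, was at 119, 108, 114 and 114 CPM, the smallest spread of the 17.

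Of the other replication genes, Fen1, the flap endonuclease, followed Rrm2, with 110 CPM in ES-NMP, 69.1 in Epi-CE, 59.0 in Epi-CE-T and 102 in Epi-NMP. Pcna, the sliding clamp, was at 63.4, 46.9, 42.2 and 58.9 CPM in that order. Slbp, which binds the stem-loop of histone messages, was at 298, 230, 179 and 265 CPM. Each of these 3 was highest in ES-NMP and lowest in Epi-CE-T. Pcna and Tyms, and among the G2/M genes Ccnb1 and Ccnb2, have processed pseudogenes in the annotation, and how reads that map to several places were counted is not given in the sources used here, so their levels are less certain.

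The G2/M genes did not share this order. Their summed level was 2440 CPM in ES-NMP, 2211 in Epi-CE, 2635 in Epi-CE-T and 2184 in Epi-NMP, so the library with the lowest S sum had the highest G2/M sum. Epi-CE-T was highest for 9 of the 17 genes and lowest for 0, and Epi-NMP was lowest for 8. Not all of these ranks exceeded counting error. The top interval of Cenpe overlapped the next library, as did the Epi-NMP intervals of Aurka, Aurkb, Bub1 and Nusap1. The ratio of the highest to the lowest library was smaller than for the S genes, with a median of 1.37 and a range from 1.13 for Cenpe to 2.36 for Hmmr.

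Of the mitotic kinases, Aurkb, the catalytic subunit of the chromosomal passenger complex, was at 78.3 CPM in ES-NMP, 72.0 in Epi-CE, 126 in Epi-CE-T and 71.2 in Epi-NMP. Epi-CE-T stood alone above 3 close libraries, 1.75-fold over Epi-CE (1.68 to 1.82). Birc5 (survivin), which belongs to the same complex, was at 334, 246, 267 and 311 CPM in that order and did not show that pattern. Aurka, the centrosomal Aurora kinase, was at 106, 82.6, 102 and 77.4 CPM. Plk1, the Polo-like kinase of mitotic entry, was at 106, 99.5, 121 and 83.5 CPM, and Bub1, a kinase of the spindle checkpoint, at 42.5, 59.6, 45.3 and 39.4 CPM, highest in Epi-CE.

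The cyclins and their kinase moved apart. Cdk1 was at 178 CPM in ES-NMP, 175 in Epi-CE, 215 in Epi-CE-T and 179 in Epi-NMP. Its mitotic cyclin Ccnb1 was at 315, 226, 230 and 207 CPM, highest in ES-NMP and lowest in Epi-NMP, whereas Ccnb2 was at 146, 185, 182 and 117 CPM, highest in both caudal epiblast libraries. Ccna2, the cyclin A of S phase and G2, was at 146, 97.8, 99.2 and 114 CPM. It was highest in ES-NMP, as most S genes were, but its lowest level was in Epi-CE, close to Epi-CE-T. Birc5 had the same order of libraries.

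Of the spindle and chromosome genes, Hmmr, a microtubule-binding protein of the spindle, was at 73.1 CPM in ES-NMP, 77.3 in Epi-CE, 131 in Epi-CE-T and 55.6 in Epi-NMP, which made it 1.69-fold higher in Epi-CE-T than in Epi-CE (1.63 to 1.76). Nusap1, which bundles spindle microtubules, was at 73.9, 113, 134 and 69.4 CPM, with both caudal epiblast libraries above both NMP libraries. Top2a was at 230, 220, 293 and 224 CPM and Ube2c, the ubiquitin-conjugating enzyme of the anaphase-promoting complex, at 295, 227, 311 and 271 CPM, both highest in Epi-CE-T. Mki67, which coats mitotic chromosomes, was at 29.0, 32.1, 35.9 and 38.1 CPM, highest in Epi-NMP, where its interval overlapped that of Epi-CE-T. The kinetochore genes Cenpe and Cenpf and the spindle factor Tpx2 had a highest library at most 1.21-fold above the lowest.

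**Figure D2:**
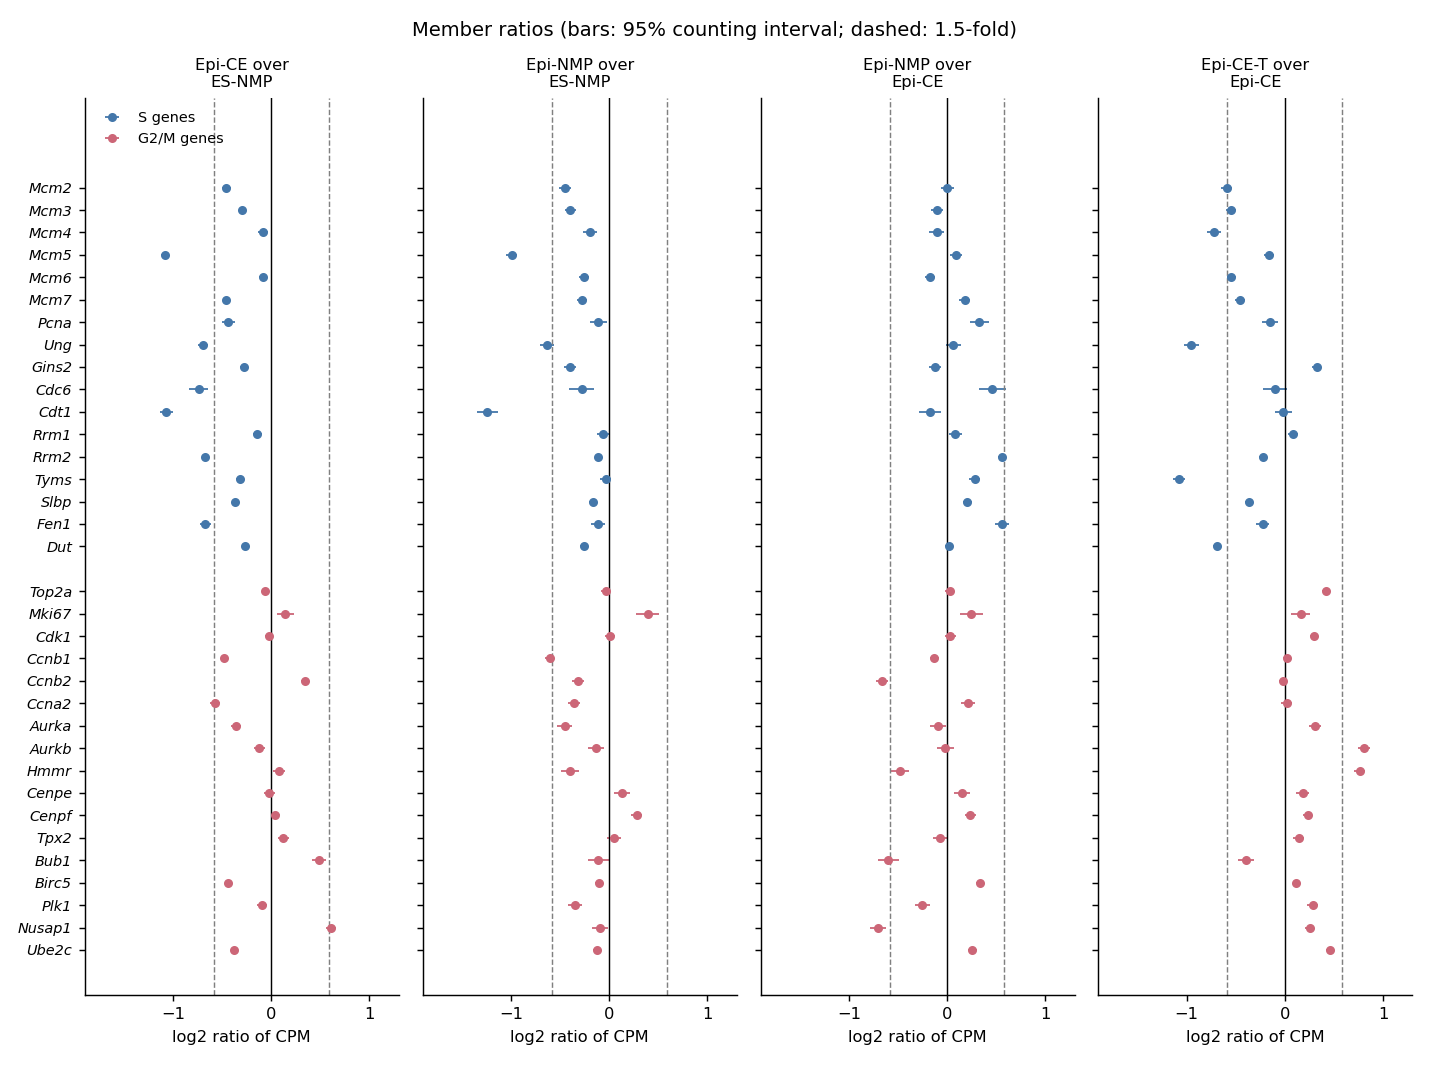
Log2 ratio of CPM of each gene in the 4 comparisons, with the 95% counting interval and dashed lines at 1.5-fold. In Epi-CE over ES-NMP and Epi-NMP over ES-NMP all 17 S genes lie left of 0, and in Epi-CE-T over Epi-CE 15 of 17 S genes lie left and 15 of 17 G2/M genes right of 0.

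Counted by comparison, 6 of 17 S genes were at least 1.5-fold lower in Epi-CE than in ES-NMP (Mcm5, Ung, Cdc6, Cdt1, Rrm2 and Fen1) and 0 were higher, where 16.2% of the 13553 genes with 50 UMIs over both libraries were lower and 21.1% higher. The median log2 ratio of the S genes was -0.44 and all 17 were below 0, against a median of 0.03 over all genes. Of the G2/M genes 1 was higher, Nusap1 at 1.53-fold (1.47 to 1.58), and 0 were lower, with a median of -0.03. Leaving out the cells with naive markers moved neither the S nor the G2/M counts of this comparison by more than 1.5 times.

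In Epi-NMP against ES-NMP, which shares the ES-NMP library with the comparison above, 3 of 17 S genes were lower (Mcm5, Ung and Cdt1) and 0 higher, against 18.4% lower and 16% higher over all genes. The S median was -0.26, again with all 17 below 0. The G2/M median was -0.11, and 1 gene was lower, Ccnb1 at 1.52-fold (1.48 to 1.57). Between Epi-NMP and Epi-CE, 0 of 17 S genes passed 1.5-fold, with a median of 0.08. Of the G2/M genes 3 were lower in Epi-NMP, Ccnb2 (1.58-fold), Bub1 (1.51-fold) and Nusap1 (1.62-fold), where 22.7% of all genes were lower and 14.9% higher. These shares lie near or below those of all genes.

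In Epi-CE-T against Epi-CE the 2 lists lay on opposite sides. Of the S genes 5 were at least 1.5-fold lower (Mcm2, Mcm4, Ung, Tyms and Dut) and 0 higher, against 13.1% lower and 18.1% higher over all genes, with a median log2 ratio of -0.36. Of the G2/M genes 2 were higher (Aurkb and Hmmr) and 0 lower, with a median of 0.23, against 0.04 over all genes. The count of G2/M genes lies below the share of all genes that were higher. Cell type markers moved between these 2 libraries as well, and their part was not tested. The 5 node and notochord markers summed to 61.1 CPM in Epi-CE and 192 in Epi-CE-T, the 5 endoderm markers to 8.35 and 30.1, and the 7 caudal and NMP markers to 913 and 455, with none at 0 in either library. Single markers did not all move with the sum of their list. Past 1.5-fold, 2 node and notochord markers rose from Epi-CE to Epi-CE-T and 1 fell. The log2 ratios of that list had their median at -0.045, so its sum rose through few genes. By the same measure 3 endoderm markers rose and 2 fell, and 1 caudal and NMP marker rose and 5 fell. Shh was at 4.43 and 78.7 CPM, Chrd at 12.4 and 71.1, and Cdx2, a caudal identity factor, at 122 and 4.67. In ES-NMP the node and endoderm sums were 2.64 and 3.90 CPM and the naive sum 1764, against 63.5 in Epi-CE, 20.9 in Epi-CE-T and 31.3 in Epi-NMP. This comparison shares the Epi-CE library with the first.

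Other genes of the cycle, from lists that do not overlap the members, gave these counts, to be read against the shares of all genes given above for each comparison. Of 25 other S phase genes 10 were lower in Epi-CE than in ES-NMP and 0 higher (16.2% and 21.1% of all genes), among them Usp1 (81.6 to 43.0 CPM), which deubiquitinates PCNA, and Rpa2 (141 to 77.3 CPM), which coats unwound single-stranded DNA. Of 34 other G2 and M genes 4 were lower and 0 higher. In Epi-CE-T against Epi-CE 7 of the 25 S genes were lower and 1 higher (13.1% and 18.1% of all genes), and 1 of the 34 G2 and M genes was lower and 3 higher, among them Ckap2, a spindle protein, at 32.05 CPM in Epi-CE and 71.8 in Epi-CE-T. The median log2 ratios of these 2 lists were -0.42 and 0.19 there. In Epi-NMP against Epi-CE 8 of the 25 S genes were higher and 2 lower (14.9% and 22.7% of all genes). Their median there was 0.35, above the 0.08 of the 17 S members. Of the 34 G2 and M genes 1 was higher and 2 were lower, with a median of 0.03. In Epi-NMP against ES-NMP 4 of the 25 and 3 of the 34 were lower and 0 higher (18.4% and 16% of all genes).

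Of 20 genes for G1 cyclins, their kinases and the E2F and RB families, 4 were lower and 1 higher in Epi-CE than in ES-NMP. Over all genes 16.2% were lower and 21.1% higher, so the count lower is near that share. Mybl2, which encodes B-MYB, was at 94.4 CPM in ES-NMP and 25.0 in Epi-CE, E2f4, an E2F of the DREAM complex, at 231 and 98.7, and Ccne1, cyclin E1, at 114 and 53.9. In Epi-NMP against ES-NMP 6 of the 20 were higher and 3 lower (16% and 18.4% of all genes). Ccnd2, a D-type cyclin, was at 240 CPM in ES-NMP and 586 in Epi-NMP, and Cdk6, a kinase that binds it, at 20.4 and 54.4. In Epi-NMP against Epi-CE 8 of the 20 were higher and 0 lower (14.9% and 22.7% of all genes). In Epi-CE-T against Epi-CE 2 were higher and 2 lower (18.1% and 13.1% of all genes). Of 12 mitotic exit and checkpoint genes, 2 were lower and 0 higher in Epi-CE-T than in Epi-CE, Wee1 (16.2 to 7.71 CPM) and Pkmyt1 (20.9 to 12.7 CPM), the kinases that hold Cdk1 inactive. That count is near the 13.1% of all genes lower in this comparison.

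Of 7 CDK inhibitors, 2 made up most of the summed level, Cdkn1a and Cdkn1c. The sum was at 445 CPM in ES-NMP, 792 in Epi-CE, 1458 in Epi-CE-T and 957 in Epi-NMP. In Epi-CE-T against Epi-CE 5 of 7 were higher and 0 lower, against 18.1% and 13.1% of all genes. The list was mixed elsewhere. In Epi-CE against ES-NMP 4 were higher and 3 lower, against 21.1% and 16.2% of all genes. In Epi-NMP against ES-NMP 1 was higher and 2 were lower, against 16% and 18.4% of all genes. Cdkn2a, which encodes p16 and ARF, was at 23.6 CPM in ES-NMP, 9.10 in Epi-CE, 16.2 in Epi-CE-T and 26.1 in Epi-NMP, and so was lowest in Epi-CE. Cdkn1c, which encodes p57, was at 97.2 CPM in ES-NMP, 247 in Epi-CE, 565 in Epi-CE-T and 555 in Epi-NMP. Cdkn1a, which encodes p21, was at 298, 496, 814 and 348 CPM in that order. Cdkn1c and Cdkn1a thus differed in Epi-NMP, where Cdkn1c was high and Cdkn1a was not.

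To see how many cells stood behind these levels, each cell was thinned at random to 8000 UMIs and scored for the S and the G2/M list against genes of similar level. A cell was placed in the S class or the G2/M class by its higher score if that score was above 0, and in neither class if both scores were at or below 0. The scores are centred on the 4 libraries together, so the classes are relative, they are ranges of a score and not phases measured by DNA content, and 6.3% to 13.1% of cells of a library lay within 0.05 of a boundary. Free RNA in the droplets also enters these scores, and its part was not tested.

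Epi-CE-T held the most cells in neither class. In ES-NMP that share was 6.68% of cells (interval 5.82 to 7.61), and in Epi-NMP 22.5% (20.1 to 25.1). Epi-CE had 34.8% (32.9 to 36.7) and Epi-CE-T 51.5% (49.3 to 53.6). The S class held 53.5% of ES-NMP, 32.7% of Epi-CE, 15.2% of Epi-CE-T and 39.7% of Epi-NMP cells, and the G2/M class 39.8%, 32.5%, 33.3% and 37.8% in that order. The libraries thus lay far apart in the S class and close together in the G2/M class. Within ES-NMP, the 950 cells with naive markers had 54.0% S, 42.2% G2/M and 3.79% neither. The share of cells with no UMI of any of the 17 G2/M genes was 0.738% in ES-NMP, 7.00% in Epi-CE, 15.8% in Epi-CE-T and 5.22% in Epi-NMP. The plot of single-cell scores shows this as a cloud at low values of both scores in Epi-CE-T that is nearly empty in ES-NMP.

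**Figure D3:**
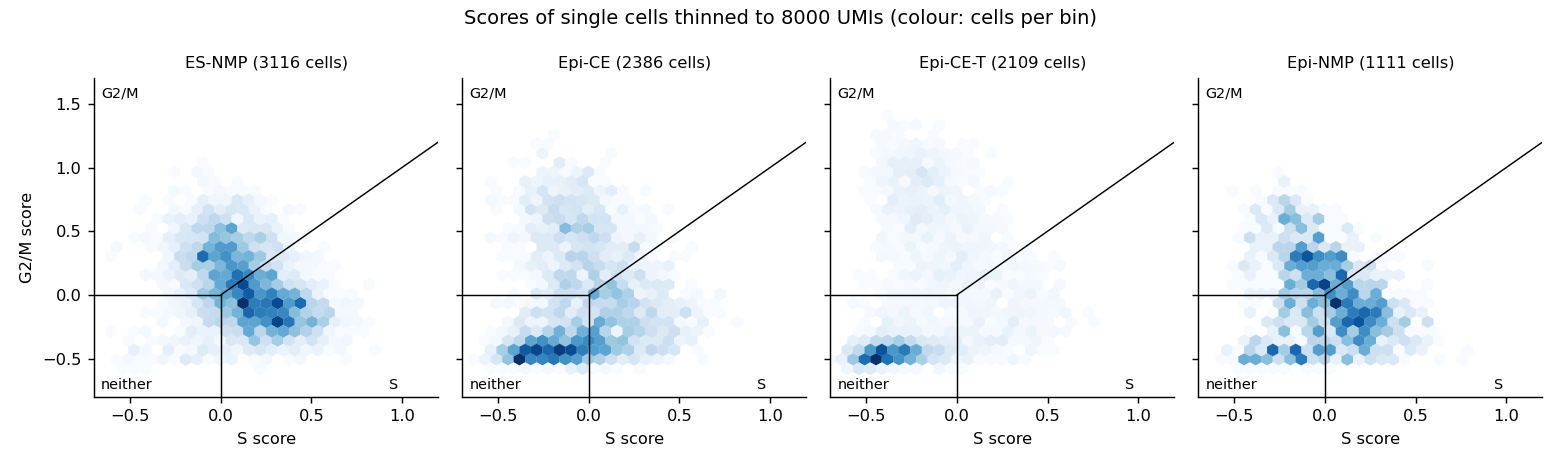
G2/M score against S score of each thinned cell, 1 panel per library, colour giving the number of cells per bin and black lines the class boundaries. The lower left region, neither class, holds 6.68% of ES-NMP and 51.5% of Epi-CE-T cells.

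The counts per cell within a class are a description only, since each class was cut on a score of the same genes. Per thinned cell of the G2/M class, the median count over the 17 G2/M genes was 27 UMIs in ES-NMP, 33 in Epi-CE, 42 in Epi-CE-T and 26 in Epi-NMP. Over all cells the median was 16, 10, 4 and 13 UMIs in that order. So Epi-CE-T had the lowest median over all cells and the highest within the G2/M class. Cells of the S class had a median of 30, 26, 27.5 and 27 UMIs of the 17 S genes. Raw depth moved with the classes: in Epi-CE-T the median was 22908 UMIs per S cell, 24955 per G2/M cell and 15639.5 per cell in neither class, and its part in the shares beyond the thinning was not tested.

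Each gene was then set against the classes with itself left out of the score. CPM by class, and by T below, were taken over the thinned counts, where each cell has equal weight. They are not on the scale of the library levels above. All 17 G2/M genes were higher in G2/M cells than in S cells, all of them past 1.5-fold over the 4 libraries together, with a median log2 ratio of 1.59. Nusap1 was at 28.1 CPM in S cells, 190 in G2/M cells and 7.83 in cells of neither class. Ccna2 was at 104, 168 and 29.2 CPM, the smallest ratio over the pooled cells. Within libraries, whose levels and class shares differ, 13 of 17 G2/M genes passed 1.5-fold in ES-NMP, 17 in Epi-CE, 17 in Epi-CE-T and 16 in Epi-NMP. The smallest ratio was that of Ccnb2 in ES-NMP (log2 0.18) and Epi-CE, of Bub1 in Epi-CE-T and of Ccna2 in Epi-NMP. The S genes were less clean: over the pooled cells all 17 were higher in S cells, 10 of them past 1.5-fold, with a median log2 ratio of G2/M over S cells of -0.70. Ung was at 174 CPM in S cells, 38.1 in G2/M cells and 50.5 in neither, 4.57-fold higher in S than in G2/M cells (4.26 to 4.91), and Cdc6 at 50.2, 14.9 and 5.66, whereas Rrm1 was at 136, 127 and 56.2 and Tyms at 156, 141 and 57.8. Within libraries 7 of 17 S genes passed in ES-NMP, 9 in Epi-CE, 14 in Epi-CE-T and 12 in Epi-NMP. In Epi-CE alone, Rrm1 and Tyms were slightly higher in G2/M than in S cells. Over the pooled cells both genes differed more between either class and neither than between S and G2/M.

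Cells with and without T were compared within each library, a cell with T being one with at least 1 T UMI after thinning. They made up 32.5% of ES-NMP, 79.3% of Epi-CE, 75.5% of Epi-CE-T and 51.9% of Epi-NMP cells, and 47.6%, 88.6%, 82.6% and 64.5% without thinning. In the 950 ES-NMP cells with naive markers (median 22991 UMIs before thinning, against 22066 in all ES-NMP cells) 17.1% had a T UMI. T is no marker of such cells, but no estimate of free RNA was made, so how much of the T calls in any library is background was not tested. Of cells without T after thinning, 22.4%, 45.3%, 29.2% and 26.2% had a T UMI among their unthinned counts. Cells of 1 library are not replicates, and the intervals again cover counting error only.

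The difference between cells with and without T was widest in Epi-CE-T. There 10.8% of 1592 cells with T were in the S class, 29.9% in the G2/M class and 59.3% in neither, against 28.6%, 43.9% and 27.5% of 517 cells without T. The S share was lower with T by 17.8 points (interval of the difference -22.1 to -13.8) and the G2/M share by 14.0 points (-18.8 to -9.21). In Epi-NMP 35.2% of 577 cells with T were S, 35.9% G2/M and 28.9% neither, against 44.6%, 39.9% and 15.5% of 534 without. There the S share was lower by 9.39 points (-15.1 to -3.63), and the interval of the G2/M difference held 0.

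In Epi-CE 31.9% of 1891 cells with T were S, 31.5% G2/M and 36.6% neither, against 35.6%, 36.6% and 27.9% of 495 without, and only the G2/M share (-5.10 points, -9.89 to -0.46) and the share in neither (8.72 points, 4.08 to 13.1) had an interval clear of 0. The S and G2/M calls in Epi-CE changed over with the setting. The S difference was clear of 0 at 4000 UMIs (-10.1 points), without thinning (-6.79), with longer score lists (-8.75) and at 3 or more T UMIs (-7.89). Without cells with naive markers it was clear of 0 when scores were computed anew (-5.52). With the main scores kept, the interval held 0 without those cells (-3.67, -8.45 to 0.94). The interval of the G2/M difference held 0 at 4000 UMIs, without thinning (-0.87), with longer lists (-3.34) and at 3 or more T UMIs (-3.34). In ES-NMP 51.6% of 1013 cells with T were S, 42.3% G2/M and 6.02% neither, against 54.4%, 38.6% and 6.99% of 2103 without. There the G2/M share was higher with T by 3.74 points (0.07 to 7.43), but the interval held 0 over all barcodes (-0.37 to 6.94), with longer lists (-0.30 to 7.03) and with high-UMI barcodes left out (-0.30 to 7.26). The S difference of ES-NMP was clear of 0 without thinning (-3.55) and at 3 or more T UMIs (-9.02), and the G2/M difference of Epi-NMP with longer lists (-6.13). A difference between libraries in this contrast was not tested.

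The share in neither class followed the number of T UMIs in Epi-CE-T. It was 27.5% with 0 T UMIs, 39.8% with 1, 50.8% with 2, 57.8% with 3 to 5 and 73.7% with 6 or more (532 cells), and the S share over the same classes went from 28.6% to 4.89%. In Epi-NMP the share in neither was 15.5%, 15.1%, 18.1%, 28.9% and 46.2% (182 cells), with no step between 0 and 1 T UMI. In Epi-CE it was 27.9%, 33.2%, 29.2%, 35.1% and 43.5%, which is not stepwise, and the S share was 35.6% at 0, 42.8% at 1 and 21.7% at 6 or more T UMIs. In ES-NMP the cells with 6 or more T UMIs (89 cells) had 7.87% in neither class (3.22 to 15.5), near the 6.99% with 0. Their S share was 37.1% (27.1 to 48.0) against 54.4% with 0 T UMIs, and their G2/M share 55.1% (44.1 to 65.6) against 38.6%. At the highest T level, then, ES-NMP had fewer S and more G2/M cells, and Epi-CE-T fewer of both.

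**Figure D4:**
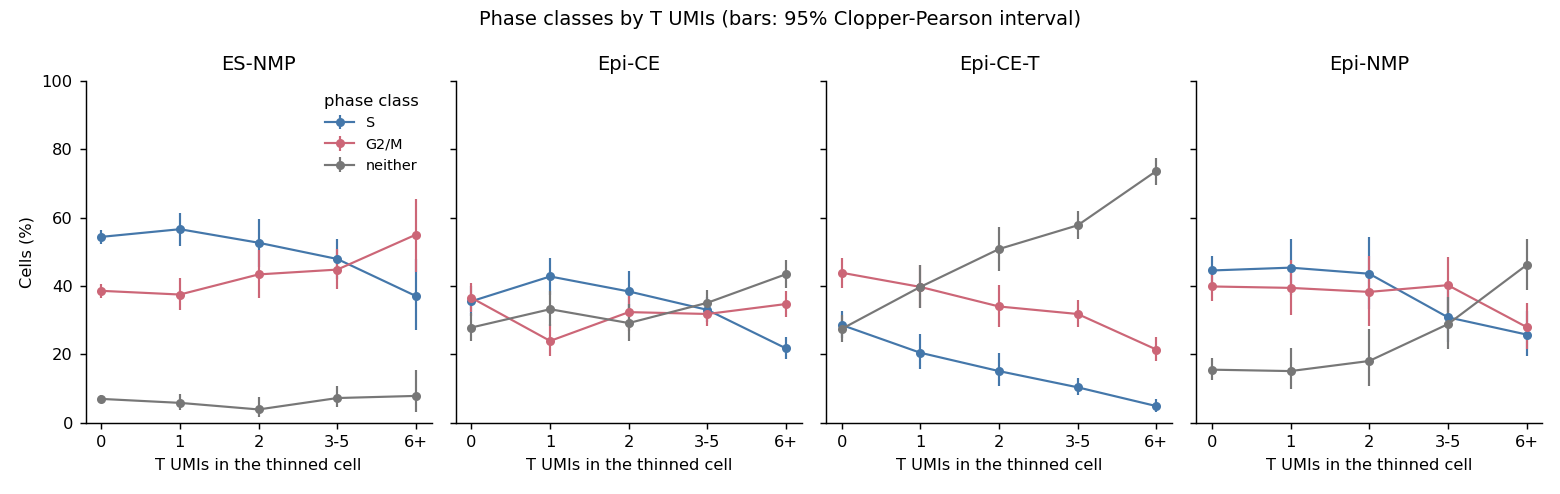
Share of cells in the S class, the G2/M class and neither, by the number of T UMIs in the thinned cell (0, 1, 2, 3 to 5, 6 or more), 1 panel per library, with 95% Clopper-Pearson intervals. In Epi-CE-T the share in neither goes from 27.5% to 73.7%, and in ES-NMP it stays below 10% at every T level drawn.

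Gene by gene, the difference was larger among the S genes. In Epi-CE-T 14 of 17 S genes were at least 1.5-fold lower in cells with T than without, against 7.67% of the 10291 genes measured there, and 0 of 17 were higher, against 11.7%. The median log2 ratio was -0.75. Rrm2 was at 119 CPM in cells with T and 267 without, 2.24-fold lower (2.07 to 2.42). Cdt1 was at 27.8 and 56.3 CPM, 2.03-fold lower (1.71 to 2.40), and Cdc6 at 13.3 and 25.4 CPM. Slbp, at 1.502-fold, only just passed, while Gins2 (1.48-fold), Mcm3 (1.45-fold) and Rrm1 (1.25-fold, 1.13 to 1.39) did not pass. Of the G2/M genes 0 of 17 passed 1.5-fold, though all 17 were below 0 with a median of -0.44, from Plk1 at 1.47-fold lower (1.32 to 1.64) to Ube2c at 1.07-fold (0.997 to 1.15).

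In Epi-NMP 1 of 17 S genes passed, Rrm2 at 248 CPM with and 396 without T, 1.60-fold lower (1.48 to 1.72), against 4.62% of genes lower and 8.02% higher. The S median was -0.18 and the G2/M median -0.19. In Epi-CE 0 of 34 members passed, against 4.26% lower and 6.97% higher, with medians of -0.17 and -0.15. In ES-NMP 0 of 34 passed, against 6.08% lower and 4.41% higher, with medians of -0.08 and 0.07. The map of these ratios shows 1 dark row, that of Epi-CE-T.

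**Figure D5:**
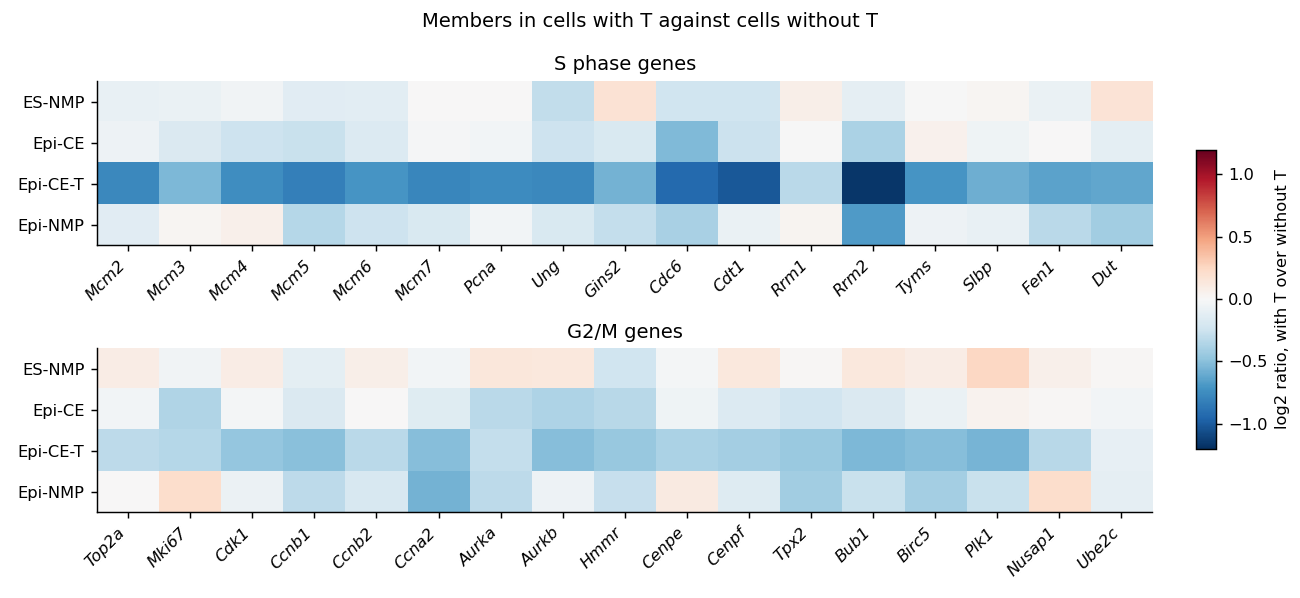
Log2 ratio of each gene in cells with T over cells without T, 1 row per library and 1 column per gene, S genes above and G2/M genes below, blue being lower with T. The Epi-CE-T row is below 0 for all 34 genes, with a median of -0.75 for S and -0.44 for G2/M genes.

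Several values moved with T in the same cells, and their part in the result was not tested. Cells without T were deeper in Epi-CE-T, with a median of 25121 raw UMIs against 17836 with T. The same held in Epi-NMP (21523.5 against 16948) and Epi-CE (24634 against 22130). In ES-NMP the medians were 21780 without T and 22439 with T. Markers of node and notochord, Shh, Foxa2, Chrd, Noto and Foxj1, summed to 274 CPM in cells with T and 67.0 without in Epi-CE-T, with 0 and 1 of the 5 at 0. The same sums were 89.5 and 13.3 CPM in Epi-NMP, with 0 and 2 markers at 0. They were 86.3 and 30.6 CPM in Epi-CE and 5.80 and 1.84 CPM in ES-NMP, with 0 and 1 at 0 in each. The other caudal and NMP markers, T left out, summed to 46.2 CPM with T and 106 without in Epi-CE-T, none of the 6 at 0 with T and 1 without. They went the other way in ES-NMP (902 with T, 475 without) and Epi-CE (540 and 348), and were close in Epi-NMP (566 and 585), with none at 0. In Epi-CE-T endoderm markers summed to 36.7 CPM with T and 12.8 without, paraxial mesoderm markers to 131 and 48.1, and neural markers to 6.28 and 22.0. Of the endoderm and of the paraxial markers 1 was at 0 both with and without T. Over the whole unthinned library Dll3 made up 109 of the 111 CPM of the paraxial sum and Foxa1 25.3 of the 30.1 CPM of the endoderm sum. These sums thus rest mostly on 1 gene each and do not describe their lists. In ES-NMP the 10 naive markers summed to 716 CPM with T and 2200.5 without. In the 3 EpiSC-derived libraries the differences were smaller in cells without a UMI of any node or notochord marker. In Epi-CE-T 45.5% of 308 such cells with T were in neither class (39.8 to 51.2) against 24.7% of 373 without T (20.4 to 29.4), a difference of 20.8 points, and the S and G2/M shares were lower with T by 13.3 and 7.45 points. Among Epi-CE-T cells with such a UMI the share in neither was 62.6% of 1284 with T and 34.7% of 144 without. In the other EpiSC-derived libraries calls were lost without these cells: the interval held 0 for the S difference in Epi-NMP (-6.64 points, -13.2 to 0.03) and, in Epi-CE, for the G2/M difference (-1.72, -7.09 to 3.45) and the difference in neither (4.27, -0.93 to 9.18). The difference in neither in Epi-NMP was 9.73 points (4.35 to 15.2). Leaving these cells out was chosen after the data had been seen.

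Cdkn1c followed the same split. Over the thinned counts it was at 821 CPM in cells with T and 259 without in Epi-CE-T, and at 1045 and 246 in Epi-NMP. It was at 308 and 130 CPM in Epi-CE, and at 115 and 98.9 in ES-NMP. These values are not to be set against the library levels, which come from unthinned sums. By class it was at 241 CPM in S cells, 320 in G2/M cells and 1049 in cells of neither class in Epi-CE-T, and at 501, 445 and 1306 CPM in Epi-NMP. Cdkn1a differed less, at 922 CPM with T and 700 without in Epi-CE-T. Ccne1, the cyclin of the G1 to S transition, was at 75.4 CPM in S cells of Epi-CE-T, 18.8 in G2/M cells and 24.2 in neither, and at 148, 71.8 and 60.7 CPM in ES-NMP. In Epi-NMP Ccne1 was at 137, 43.2 and 53.5 CPM. Cells in neither class thus had more Cdkn1c than S or G2/M cells and less Ccne1 than S cells in Epi-CE-T and Epi-NMP.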

How the data were processed

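Single cells of 4 cultures, 1 library each, were grouped by sample title. The submitters' processing notes name Cell Ranger 1.3.1, Seurat 2.0 and build mm10. Not given in the sources used here are aligner settings, annotation, strand and the handling of multi-mapping reads. The deposited table holds raw whole-number UMI counts per gene and barcode, and the deposited cell table assigns barcodes to libraries and marks them TRUE or FALSE, a mark that the sources used here do not define. Every TRUE barcode had at least 8011 UMIs and 2501 genes, and 80 of 1857 FALSE barcodes exceeded both minimums. No column of values was left unused (0).

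Counts were summed per library over TRUE barcodes and scaled to CPM. Levels by T or by class were summed over cells thinned to 8000 UMIs instead. Ratios carry exact conditional binomial intervals, levels exact Poisson, shares Clopper-Pearson and differences of shares Newcombe intervals, all at 95%. Genes with 50 UMIs over both libraries were counted as higher or lower at 1.5-fold. For phase classes each cell was thinned to 8000 UMIs, normalised to 10000, log-transformed, and scored as the mean of 17 members less that of the 100 genes nearest each in level. All members were named, with up to 3 genes of each other list by size of ratio among those with 200 UMIs. Members and lists were chosen with earlier results of these data known. No doublet caller was run, all TRUE barcodes were kept, and removing the 5% with most UMIs was an alternative. Scripts were tested on simulated data. Python 3.11.15, numpy 2.4.6, scipy 1.17.1, pandas 2.3.3, and, for alternative scalings, edgeR 4.0.16 and DESeq2 1.42.0 in R 4.3.3 were used. Coordinates and promoters came from GENCODE M21 and RefSeq on GRCm38.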

Additional observations from a re-analysis of the deposited data

Results flagged for a closer look

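The G2/M share in cells with T less that in cells without T had opposite signs between libraries. It was 3.74 points in ES-NMP, -5.10 in Epi-CE and -14.0 in Epi-CE-T, each with a counting interval clear of 0 in the settings used and each from a single library. The ES-NMP interval held 0 over all barcodes, with longer score lists and with high-UMI barcodes left out. The Epi-CE interval held 0 in 5 alternatives, among them no thinning (-0.87, -7.00 to 4.84) and no cells with a node marker UMI (-1.72). Whether the libraries differ in this contrast was not tested, since cells are not replicates, and the Epi-CE value turned to 0.33 when cells were thinned to 4000 UMIs.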

How the results depend on the processing

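With 1 library per culture, no replicate could be left out. No paired analysis was possible because each group has 1 library. Alternatives were all barcodes, TMM or DESeq2 scaling, totals without ribosomal and mitochondrial genes, no count minimum, the mean of per-cell CPM, high-UMI barcodes left out, cells with naive markers left out, thinning to 4000 UMIs or none, longer score lists and at least 3 T UMIs. Of 64 list medians 53 stayed within the counting interval, and of 128 counts of members 117 stayed within 1.5 times; for phase shares and differences with T it was 58 of 72 and 83 of 96. The values outside follow. No scaling moved the median of all genes by over 0.1 on the log2 scale.

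For G2/M genes in Epi-CE over ES-NMP, the count lower was 1 with high-UMI barcodes left out, TMM or DESeq2 factors and 2 by mean per-cell CPM, the count higher was 0 with DESeq2 factors and by per-cell CPM, and the median by per-cell CPM was -0.16. In Epi-NMP over ES-NMP the count lower was 0 over all barcodes and 0 without naive-marker cells, with a median of -0.050 there. In Epi-NMP over Epi-CE the S median over all barcodes was -0.00080, so its direction is not settled, and by per-cell CPM 1 S gene was higher and 1 G2/M gene lower. In Epi-CE-T over Epi-CE the S median was -0.41 without high-UMI barcodes, -0.43 with TMM, -0.42 with DESeq2 and -0.45 by per-cell CPM, with 8 genes lower in the last. The G2/M median was 0.16 without high-UMI barcodes, 0.16 with TMM, 0.18 with DESeq2 and 0.16 by per-cell CPM.

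The S share with longer lists was 56.0% in ES-NMP, 29.6% in Epi-CE and 13.5% in Epi-CE-T, and without naive-marker cells 55.7% in ES-NMP and 34.6% in Epi-CE. The G2/M share of ES-NMP was 37.4% at 4000 UMIs, 42.1% unthinned and 37.7% without naive-marker cells. In these shares without naive-marker cells the scores were computed anew. With the main scores kept, the S shares without those cells were 53.3% in ES-NMP and 32.6% in Epi-CE. The G2/M share of ES-NMP was then 38.8%. The share in neither was 9.79%, 4.59% and 5.42% in ES-NMP (4000 UMIs, unthinned, longer lists), 37.3% in Epi-CE (longer lists), and 25.2% and 19.7% in Epi-NMP (4000 UMIs, unthinned).

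With 3 or more T UMIs against none, the S difference was -9.02 points in ES-NMP and -16.5 in Epi-NMP, the G2/M difference 8.62 in ES-NMP, and the difference in neither 37.9 in Epi-CE-T and 22.8 in Epi-NMP. In Epi-CE the S difference was -10.1 at 4000 UMIs and -8.75 with longer lists, and the G2/M difference turned to 0.33 at 4000 UMIs. In Epi-CE-T the G2/M difference was -8.70 unthinned, and the difference in neither 25.6 at 4000 UMIs. Without cells with a node marker UMI, an alternative chosen after seeing the data, the Epi-CE-T differences were -13.3 (S), -7.45 (G2/M) and 20.8 (neither). The cause of these changes was not tested. Alternatives for the class of cells in neither phase were also added after seeing the data. Depth limits the T calls: a cell without T after thinning can hold T.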
